A study of Homo sapiens with 9 samples.

Results

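The insulin-like growth factor (IGF) genes described here are the ligands IGF1 and IGF2, the receptors IGF1R and IGF2R, and the binding proteins IGFBP2 to IGFBP7. They were taken by gene symbol from the count table, where all 10 were present among 27730 symbols, and all 10 passed the filter on low counts in every comparison. The RNA came from HUES9, an established line of human embryonic stem cells, and all groups come from this single line. The cells were kept on mitomycin-treated mouse embryonic fibroblasts, spun into embryoid bodies and plated on Matrigel, a basement membrane gel. The 9 libraries form 3 groups of 3: cells at day 13 with 10 µM AA147, cells at day 13 with 10 µM RP22, and untreated cells at day 1. The labels give AA147 as a compound that activates ATF6, which turns on genes of the endoplasmic reticulum stress response, RP22 as its inactive analog, and the 3 replicates of a group as independent experiments. Both compounds were dissolved in DMSO and renewed daily with the medium. Cultures with DMSO alone were not analysed here, so AA147 was set against RP22 at the same dose and day, and each of them against the untreated cells.

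IGF1 and IGF2 are secreted growth factors that signal through IGF1R, a receptor tyrosine kinase that promotes growth and survival. IGF2R carries lysosomal enzymes tagged with mannose 6-phosphate and takes up IGF2 for degradation without signalling as a kinase. The classical binding proteins hold IGFs in the extracellular fluid and either limit or prolong their access to the receptor. IGF2 is the main IGF of the embryo and an imprinted gene, and human embryonic stem cells depend on signalling through IGF1R for self-renewal. The ligands, the receptors and the binding proteins are all made through the secretory pathway, in which ATF6 acts.

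Across these genes, AA147 cultures differed from RP22 cultures in IGF1, in both receptors and in 4 of the binding proteins, whereas IGF2 did not pass the test. Of the 10 genes, 6 were higher with AA147 than with RP22 (IGF1, IGF1R, IGF2R, IGFBP2, IGFBP3 and IGFBP7), 1 was lower (IGFBP6) and 3 did not pass (IGF2, IGFBP4 and IGFBP5). A gene was called at an adjusted p under 0.05 in edgeR's quasi-likelihood test, with Benjamini-Hochberg adjustment over all genes tested. In this comparison 29.8% of 14293 tested genes were called higher and 32.2% lower, so that a call by itself was common. The AA147 and RP22 libraries did not overlap for 8 of the 10 genes, 7 higher with AA147 and 1 lower, beside 37.9% of tested genes higher and 32.6% lower without overlap. The median log2 fold change was 0.94 over the 10 genes and -0.03 over all tested genes. Against day 1, 9 genes were higher and 1 was lower in AA147 cultures, where 38.7% of 13761 tested genes were called higher and 40.4% lower. In RP22 cultures 7 were higher, 1 was lower and 2 did not pass (IGF2R and IGFBP2) against day 1, where 36.6% of 14559 tested genes were called higher and 35.2% lower. The medians over the 10 genes were 3.05 with AA147 and 1.37 with RP22, beside -0.04 and 0.02 over all tested genes. These comparisons with day 1 share their day 1 libraries, and each also shares a group with the comparison of the compounds.

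**Figure D1:**
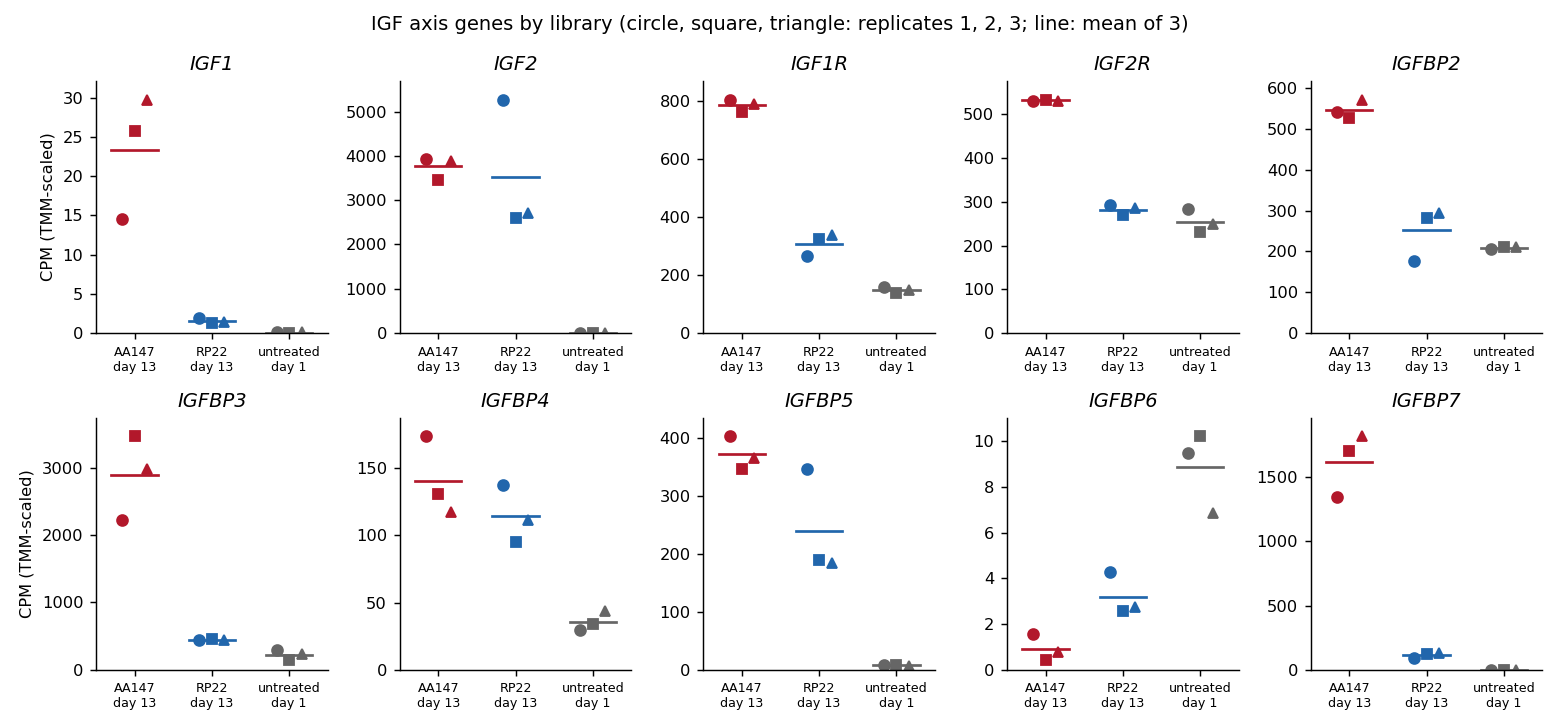
CPM (reads per 1000000, scaled by the trimmed mean of M-values over all 9 libraries) of the 10 IGF genes in each library, for AA147 at day 13, RP22 at day 13 and untreated cells at day 1. Symbols mark replicates 1 to 3 and lines the mean of 3, and IGF1, IGF1R, IGF2R, IGFBP2, IGFBP3 and IGFBP7 sit highest in all 3 AA147 libraries, whereas IGF2 in RP22 replicate 1 lies above every AA147 library.

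Library totals ranged from 9223039 to 10118267 reads. Levels between libraries are given as CPM, that is reads per 1000000 reads of the library after scaling by the trimmed mean of M-values (TMM). Levels between genes are given as the deposited RPKM, which divides by gene length and library size without TMM. TMM factors were 0.786 to 0.820 in AA147 libraries and 1.11 to 1.18 in RP22 libraries. AA147 levels therefore stand lower relative to RP22 in RPKM than in CPM. When library totals alone were used for scaling, the median over all genes in AA147 against RP22 moved to -0.49 on the log2 scale, and the share of higher among the called genes fell to 18.2%, against 48.1% with TMM. The 7 IGF genes called between the compounds kept their direction and their call under both scalings. Their sizes were less stable. Over 15 alternative fits the lowest log2 fold change of AA147 over RP22 was 0.37 for IGF2R, 0.58 for IGFBP2 and 0.80 for IGF1R. In the main fit these values were 0.83, 1.04 and 1.27. The SEs given below do not cover the choice of scaling. Markers of the cell types moved along with the compounds. The summed level of 8 pluripotency genes was 126 to 159 CPM with AA147, 397 to 683 CPM with RP22 and 6301 to 7126 CPM at day 1, and all 8 were called lower than at day 1 with either compound. The 8 smooth muscle genes summed to 5200 to 5941 CPM with AA147, 739 to 894 CPM with RP22 and 379 to 448 CPM at day 1, and 6 of the 8 were called higher with AA147 than with RP22, none lower. The 8 mesenchyme genes summed to 32808 to 42676 CPM with AA147, 6429 to 22176 CPM with RP22 and 259 to 370 CPM at day 1. RP22 replicate 1 alone gave the 22176 CPM, and the other RP22 libraries had 6429 and 7005 CPM. The IGF calls that changed when this library was left out are given with and without it. Other IGF fold changes with RP22, and the RPKM means, include it. With AA147 against RP22, 3 of 8 mesenchyme genes were called higher (COL1A1, COL1A2 and PDGFRB) and 1 lower (PDGFRA). Of 7 tested pluripotency genes 6 were called lower and 1 higher (ZFP42, log2 0.51). Of 8 neural genes 7 were called lower and 1 higher (TUBB3, log2 0.36). Endothelial genes were called lower in 7 of 7 and hepatic and yolk sac genes in 6 of 6, and 3 trophoblast genes were called higher and 4 lower. Without RP22 replicate 1, 5 mesenchyme genes were called higher and 1 lower, 7 pluripotency and 5 endothelial genes lower, and 3 trophoblast genes in each direction. The mesenchyme count was 2 higher with library totals alone and when AA147 replicate 1 or 2 or RP22 replicate 2 was left out. The trophoblast count was 1 higher with library totals alone, and 2 higher without AA147 replicate 1 or 2 or RP22 replicate 3. Of these markers NANOG, PECAM1 and TTR had no read in the AA147 libraries. In bulk RNA, fewer cells of a type and less RNA per cell cannot be told apart, and the part of these markers in the IGF results was not tested. The tables do not tell reads of mouse feeders from human reads.

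Promoter sequences of RefSeq (GRCh38.p14) were at hand for 8 of the 10 genes, with 11 start sites. IGF2 and IGFBP7 were not among them. The 250 bases before the start are printed for the 3 genes with the largest rises with AA147 over RP22 among those 8, IGF1, IGFBP3 and IGF1R, because ATF6 is known to act through the endoplasmic reticulum stress elements ERSE and ERSE-II. Capitals mark matches on either strand to the short motifs spelled out after the sequences.
IGF1, first listed start, chr12:102481748-102481997, minus strand: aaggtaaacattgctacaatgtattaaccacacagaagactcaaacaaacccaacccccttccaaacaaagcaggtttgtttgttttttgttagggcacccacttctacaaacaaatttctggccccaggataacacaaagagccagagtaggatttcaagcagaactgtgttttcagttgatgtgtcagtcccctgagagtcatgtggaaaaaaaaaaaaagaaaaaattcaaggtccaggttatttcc
IGFBP3, chr7:45921273-45921522, minus strand: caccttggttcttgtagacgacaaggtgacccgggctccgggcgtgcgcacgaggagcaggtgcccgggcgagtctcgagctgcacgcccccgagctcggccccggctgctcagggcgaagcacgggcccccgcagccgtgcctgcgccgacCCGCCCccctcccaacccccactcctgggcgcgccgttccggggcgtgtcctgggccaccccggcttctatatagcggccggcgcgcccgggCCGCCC
IGF1R, chr15:98648289-98648538, plus strand: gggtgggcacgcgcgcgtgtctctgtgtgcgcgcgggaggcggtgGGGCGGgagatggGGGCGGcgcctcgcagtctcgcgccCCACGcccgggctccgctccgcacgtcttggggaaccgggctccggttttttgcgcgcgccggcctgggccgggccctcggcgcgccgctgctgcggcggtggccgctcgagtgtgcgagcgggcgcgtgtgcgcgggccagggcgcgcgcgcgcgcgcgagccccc
Neither the full ERSE, which 0.0740% of 35116 RefSeq promoter windows of the same length held, nor the full ERSE-II, which 0.0513% held, was present in the 11 windows on either strand. The related site TGACGTGG, found in 0.612% of all windows, and its variant with a final A, found in 0.387%, were not present either. CCACG, which is the end of both elements, was in 1 of the 11 windows, that of IGF1R, against 33.5% of all windows. The CCAAT box, the beginning of ERSE, was in 1 window of IGFBP2 (32.0% of all), TATAAA in that of IGFBP4 (10.7%) and the GC box GGGCGG, which reads CCGCCC on the other strand, in 7 of 11 (42.6%). The bases G and C made up 81.2% of the IGF1R window, 76.0% of the IGFBP3 window and 39.6% of the IGF1 window, beside a median of 58.0% over all windows. A match in these letters is a description and no site, and a window without one leaves other regions unread.

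Of the ligands, IGF1 was higher with AA147 than with RP22 and IGF2 was abundant with both compounds. IGF1, the IGF that in adults is made largely in the liver under growth hormone, had 14.6, 25.8 and 29.7 CPM in AA147 cultures, 1.96, 1.27 and 1.42 CPM in RP22 cultures and 0.0930, 0 and 0.0995 CPM in day 1 cells. The lowest AA147 library lay well above the highest RP22 library, and the day 1 libraries held 2 IGF1 reads in all. The log2 fold change of AA147 over RP22 was 3.82 ± 0.32 (SE, n = 3 each), a 14.1-fold difference (edgeR adjusted p = 4.8e-05). Of all tested genes, 4.597% had a larger absolute change. Against day 1, the fitted log2 fold change was 8.22 ± 0.51 with AA147 (edgeR adjusted p = 5.6e-07) and 4.36 ± 0.61 with RP22 (edgeR adjusted p = 0.00031). With 2 day 1 reads these SEs are smaller than the counting error, and the ratio of summed reads per depth was 364-fold with AA147 (95% exact counting interval 100.2 to 3013) and 24.0-fold with RP22 (6.32 to 204).

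IGF2, the fetal IGF, had 3933, 3461 and 3897 CPM in AA147 cultures, 5271, 2594 and 2703 CPM in RP22 cultures and 6.23, 4.47 and 4.08 CPM in day 1 cells. The AA147 and RP22 ranges overlapped, and all 6 day 13 libraries stood far above the 3 day 1 libraries. The log2 fold change of AA147 over RP22 was 0.02 ± 0.28 (SE, n = 3 each), with a 95% interval of -0.66 to 0.69 (edgeR adjusted p = 0.96), which spans changes in both directions. RP22 replicate 1, the library with the high mesenchyme sum, set the upper end. Without it, the log2 fold change was 0.44 and IGF2 was called higher with AA147 (edgeR adjusted p = 0.0019). With library totals alone, and RP22 replicate 1 kept, it was -0.42 and not called. In RPKM, without TMM, AA147 libraries had 633, 539 and 605 and RP22 replicates 2 and 3 had 594 and 620, which overlapped. IGF2 rose 759-fold with AA147 over day 1 (log2 9.57 ± 0.17, edgeR adjusted p = 3.2e-10) and 710-fold with RP22 over day 1 (log2 9.47 ± 0.46, edgeR adjusted p = 1.2e-05). By reads it ranked 12th to 19th of all genes in AA147 libraries and 2nd or 3rd in RP22 libraries, against 10928th to 11562nd in day 1 libraries. Its share of reads differed less between the compounds than these ranks, apart from RP22 replicate 1. It was 0.322%, 0.272% and 0.308% with AA147 and 0.585%, 0.305% and 0.319% with RP22.

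Within a library, the ratio of IGF2 to IGF1 in RPKM does not depend on the scaling between libraries. It was 280.2, 145 and 130.2 with AA147 and 3261, 2313 and 1885 with RP22, and these ranges did not overlap. IGF2 was thus the more abundant ligand in every day 13 library, by a smaller margin with AA147. At day 1 the ratio was 93.1 in replicate 1 and 56.9 in replicate 3, each over a single IGF1 read, and replicate 2 had no IGF1 read.

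Both receptors were higher with AA147 than with RP22. IGF1R, the signalling receptor, had 806, 762 and 791 CPM in AA147 cultures, 265, 325 and 338 CPM in RP22 cultures and 158, 137 and 150 CPM in day 1 cells. The groups did not overlap and stood in the order AA147, RP22, day 1. The log2 fold change of AA147 over RP22 was 1.27 ± 0.11 (SE, n = 3 each), or 2.41-fold (edgeR adjusted p = 4.8e-05). IGF1R was also called higher against day 1, 5.30-fold with AA147 (log2 2.41 ± 0.08, edgeR adjusted p = 9.4e-09) and 2.08-fold with RP22 (log2 1.06 ± 0.11, edgeR adjusted p = 5.8e-05).

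IGF2R, the mannose 6-phosphate and IGF2 receptor, had 531, 533 and 531 CPM in AA147 cultures, 292, 270 and 285 CPM in RP22 cultures and 283, 230 and 249 CPM in day 1 cells. AA147 libraries lay above the rest, while RP22 and day 1 libraries overlapped. IGF2R was 1.78-fold higher with AA147 than with RP22 (log2 0.83 ± 0.07, edgeR adjusted p = 3.6e-05) and 2.09-fold higher than at day 1 (log2 1.07 ± 0.09, edgeR adjusted p = 2.2e-06). With RP22 over day 1 the log2 fold change was 0.15 ± 0.09, with a 95% interval of -0.06 to 0.36 (edgeR adjusted p = 0.17). With library totals alone it was 0.25 and called.

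The balance between the receptors moved as well. In RPKM within a library, the ratio of IGF1R to IGF2R was 1.23, 1.16 and 1.20 with AA147, 0.733, 0.974 and 0.961 with RP22 and 0.453, 0.480 and 0.487 at day 1. The ratio of IGF1R to INSR, the insulin receptor with which IGF1R forms hybrid receptors, was 15.7, 15.1 and 15.6 with AA147, 4.74, 6.05 and 5.65 with RP22 and 1.34, 2.02 and 1.54 at day 1. In both ratios the 3 groups stood apart and in the same order.

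**Figure D2:**
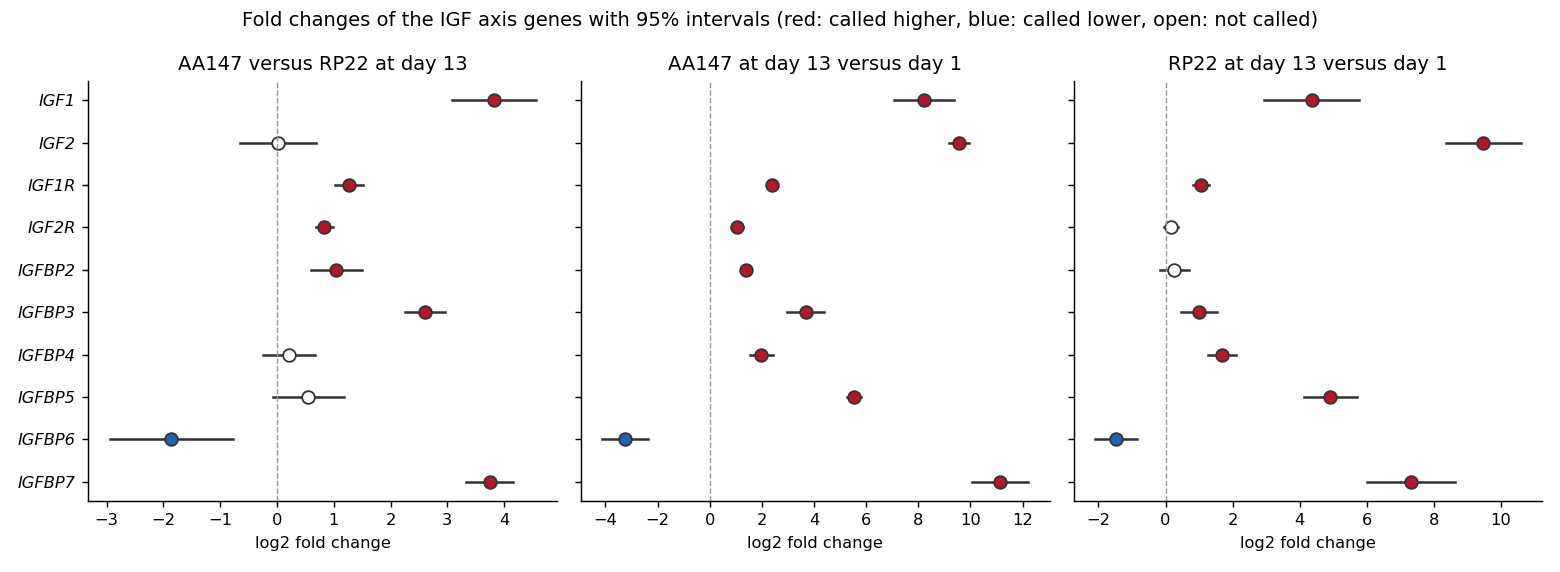
Log2 fold changes of the 10 IGF genes with 95% intervals (x axis) for AA147 over RP22 at day 13, AA147 over day 1 and RP22 over day 1, from 3 libraries a group; red points were called higher, blue lower, and open points were not called. IGF1 and IGFBP7 lie near 4 in the first panel, IGF2 sits at 0.02 there and above 9 in both others, and IGFBP6 is the gene to the left of 0 in all 3.

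IGFBP7 and IGFBP3 showed the largest differences among the binding proteins. IGFBP7, a secreted protein of low IGF affinity found in vessel walls and connective tissue, had 1345, 1704 and 1819 CPM in AA147 cultures, 91.8, 120 and 131 CPM in RP22 cultures and 1.77, 0.195 and 0.0995 CPM in day 1 cells. Each AA147 library exceeded every RP22 library by about an order of magnitude. The log2 fold change of AA147 over RP22 was 3.75 ± 0.17 (SE, n = 3 each), or 13.4-fold (edgeR adjusted p = 6.9e-06), and 4.74% of tested genes had a larger absolute change. Against day 1 the fitted log2 fold change was 11.14 ± 0.45 with AA147 (edgeR adjusted p = 8.6e-07) and 7.31 ± 0.53 with RP22 (edgeR adjusted p = 5.4e-05). The day 1 level rests on 22 reads, 19 of them in replicate 1. Without that library the values were 13.29 and 9.48, both called. The ratio of summed reads per depth was 2295-fold with AA147 (95% exact counting interval 1516 to 3663). With RP22 it was 162-fold (107 to 259). These intervals cover counting error only and not the spread between day 1 libraries. The values without day 1 replicate 1 lie above them.

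IGFBP3, the main carrier of IGFs in blood, had 2220, 3463 and 2980 CPM in AA147 cultures, 446, 451 and 441 CPM in RP22 cultures and 295, 151 and 227 CPM in day 1 cells. The 3 groups did not overlap, and the RP22 libraries were almost equal. IGFBP3 was 6.11-fold higher with AA147 than with RP22 (log2 2.61 ± 0.15, edgeR adjusted p = 1.1e-05) and 12.8-fold higher than at day 1 (log2 3.68 ± 0.29, edgeR adjusted p = 2.6e-05). With RP22 over day 1 it was 1.98-fold higher (log2 0.99 ± 0.22, edgeR adjusted p = 0.0065).

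IGFBP2, a binding protein prominent in fetal life, had 541, 527 and 572 CPM in AA147 cultures, 177, 282 and 295 CPM in RP22 cultures and 206, 210.1 and 210.3 CPM in day 1 cells. AA147 libraries were the highest, and RP22 libraries lay on both sides of day 1. IGFBP2 was 2.06-fold higher with AA147 than with RP22 (log2 1.04 ± 0.19, edgeR adjusted p = 0.0028) and 2.62-fold higher than at day 1 (log2 1.39 ± 0.07, edgeR adjusted p = 8.8e-08). With RP22 over day 1 the log2 fold change was 0.26 ± 0.18, with a 95% interval of -0.17 to 0.69 (edgeR adjusted p = 0.23). Without RP22 replicate 1 it was 0.46 and called (edgeR adjusted p = 0.00027).

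IGFBP5, which binds to extracellular matrix and bone mineral, had 404, 347.7 and 367 CPM in AA147 cultures, 347.5, 190 and 185 CPM in RP22 cultures and 8.46, 8.56 and 6.86 CPM in day 1 cells. The day 13 groups touched without overlapping, through RP22 replicate 1. The log2 fold change of AA147 over RP22 was 0.55 ± 0.26, with a 95% interval of -0.08 to 1.18 (edgeR adjusted p = 0.11). Without RP22 replicate 1 it was 0.93 and called (edgeR adjusted p = 1.3e-05). IGFBP5 rose 46.7-fold with AA147 over day 1 (log2 5.55 ± 0.12, edgeR adjusted p = 6.3e-10) and 30.1-fold with RP22 over day 1 (log2 4.91 ± 0.32, edgeR adjusted p = 2.9e-05). Its neighbour on the chromosome is IGFBP2, with no protein-coding gene between them in RefSeq.

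IGFBP4, a binding protein that inhibits IGF action and is cleaved by PAPP-A, had 174, 131 and 117 CPM in AA147 cultures, 138, 95.2 and 111 CPM in RP22 cultures and 29.7, 33.8 and 43.8 CPM in day 1 cells. The day 13 groups overlapped and both lay above day 1. The log2 fold change of AA147 over RP22 was 0.22 ± 0.19, with a 95% interval of -0.24 to 0.67 (edgeR adjusted p = 0.36), and -0.23 with library totals alone, also not called. IGFBP4 was 3.94-fold higher with AA147 than at day 1 (log2 1.98 ± 0.19, edgeR adjusted p = 2.6e-05) and 3.20-fold higher with RP22 than at day 1 (log2 1.68 ± 0.18, edgeR adjusted p = 0.00012).

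IGFBP6, which prefers IGF2 over IGF1, had 1.57, 0.414 and 0.756 CPM in AA147 cultures, 4.30, 2.55 and 2.76 CPM in RP22 cultures and 9.48, 10.2 and 6.86 CPM in day 1 cells. It was the only one of the 10 genes called lower, and the 3 groups did not overlap. IGFBP6 fell by 1.86 ± 0.47 on the log2 scale with AA147 against RP22 (edgeR adjusted p = 0.0094), by 3.25 ± 0.39 with AA147 against day 1 (edgeR adjusted p = 3.5e-05) and by 1.47 ± 0.27 with RP22 against day 1 (edgeR adjusted p = 0.0015). These levels are low, with 12, 3 and 6 reads in AA147 libraries, 46, 28 and 33 in RP22 libraries and 102, 105 and 69 in day 1 libraries. AA147 replicate 1 carried 12 of 21 reads, and with it left out the falls were 2.49 against RP22 and 3.86 against day 1. IGFBP1, a binding protein of liver and decidua, had 1 read in the 9 libraries, in RP22 replicate 3.

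Per length, the leading IGF gene differed between the groups. In AA147 cultures the mean was 1167 ± 156 RPKM for IGFBP7 and 874 ± 173 RPKM for IGFBP3 (SD, n = 3), and their ranges overlapped. IGF2 followed with 593 ± 48.1 RPKM and IGFBP2 with 305 ± 13.8 RPKM, both apart from their neighbours in the order. In RP22 cultures IGF2 led with 784 ± 307 RPKM, from 1138 in replicate 1, 594 in replicate 2 and 620 in replicate 3. It was followed by IGFBP2 with 204 ± 58.0 and IGFBP3 with 196 ± 6.96 RPKM, which overlapped, and by IGFBP7 with 120 ± 24.8 RPKM. In day 1 cells IGFBP2 led with 158 ± 2.15 RPKM, followed by IGFBP3 with 92.2 ± 29.5 and IGF2R with 30.2 ± 3.12 RPKM. IGF1 and IGFBP6 were the lowest at day 13, while IGF1 alone was lowest at day 1.

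The mix of binding protein transcripts differed accordingly. In RPKM, which carry no TMM scaling, IGFBP2 to IGFBP7 summed to 2115, 2623 and 2598 in AA147 libraries. The sums were 553, 649 and 679 RPKM in RP22 libraries and 305, 251 and 283 RPKM in day 1 libraries. IGFBP7 made up 47.0%, 46.1% and 50% of that sum with AA147, 16.7%, 19.6% and 20.6% with RP22 and 0.559%, 0.0773% and 0.0335% at day 1. IGFBP2 made up 14.7%, 11.05% and 12.2% with AA147, 24.9%, 35.6% and 35.9% with RP22 and 51.1%, 63.4% and 56.4% at day 1. The shares of IGFBP7 and IGFBP2 thus ran in opposite order over the 3 groups. The share of IGFBP3 was 32.7% to 39.4% with AA147, 29.2% to 34.0% with RP22 and 24.8% to 39.7% at day 1, and these ranges overlapped. The ratio of summed binding protein to summed ligand transcripts was 3.33, 4.83 and 4.26 with AA147, 0.486, 1.09 and 1.09 with RP22 and 232, 267 and 326 at day 1. Binding protein transcripts exceeded ligand transcripts in every AA147 library. The sums were close in RP22 replicates 2 and 3, and the ligand sum was larger in RP22 replicate 1. The sums include IGFBP7, of low IGF affinity, at 46.1% to 50% with AA147 and 16.7% to 20.6% with RP22. An exact permutation test (two-sided) of 3 libraries against 3 reaches p = 0.1 at best, so none is given for such ratios.

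**Figure D3:**
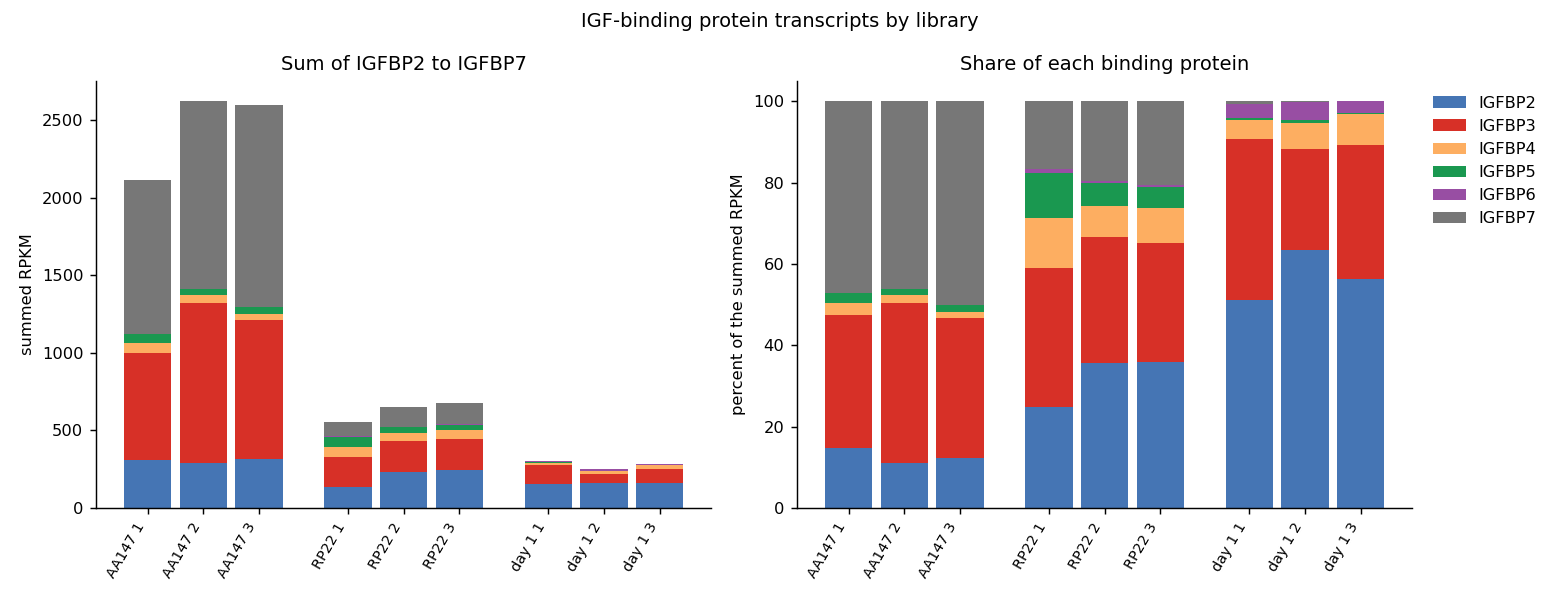
Summed RPKM of IGFBP2 to IGFBP7 in each library (left) and the percent of that sum from each gene (right), for the 3 AA147, the 3 RP22 and the 3 day 1 libraries. AA147 bars reach 2115 to 2623 RPKM with IGFBP7 at 46.1% to 50%, RP22 bars reach 553 to 679 RPKM, and IGFBP2 is the largest share in every day 1 bar.

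Each IGF gene was also set beside the genes with the most similar profile over the 9 libraries, by the root mean square difference of log2(CPM + 1) after centring each gene, among 12936 genes of at least 5 CPM in 1 group. IGFBP7 was closest to ANKRD1, with a difference of 0.22, then to TGFB2 at 0.43 and CCDC80 at 0.43. ANKRD1 is a muscle stress protein and TGFB2 a growth factor of the TGF-beta family. IGF2 was closest to LUM at 0.48, NR2F2 at 0.56 and HAPLN1 at 0.74, of which LUM, an extracellular matrix proteoglycan, stands in the mesenchyme list above. IGFBP5 was closest to ENDOD1 at 0.20, MBNL2 at 0.22 and PDGFRB at 0.25, a growth factor receptor of the same mesenchyme list. IGF1 was closest to DCBLD1 at 0.26, VDR at 0.27 and GCNT4 at 0.27, and IGFBP3 to MANBA at 0.22, PCDH7 at 0.22 and SGMS2 at 0.28. IGFBP6 was closest to C11orf82 at 0.20, ESCO2 at 0.20 and FOXM1 at 0.20, and the last of these encodes a transcription factor of the cell division cycle. IGF1R was closest to NTN1 at 0.10, ZNF185 at 0.13 and SH3RF1 at 0.13, and IGF2R to HIVEP1 at 0.07, DGCR2 at 0.09 and RPN1 at 0.09. IGFBP2 was closest to GLIS2 at 0.11, SHROOM3 at 0.13 and AJUBA at 0.15, and IGFBP4 to NTF4 at 0.14, PRR24 at 0.16 and PCDHGA6 at 0.17. Within the family the nearest pair by this measure was IGF2R and IGFBP2 at 0.26, followed by IGF1 and IGFBP3 at 0.41. Many genes outside the family were closer to them. IGFBP2 ranked 1064th in nearness to IGF2R, and IGF2R ranked 118th to IGFBP2. IGFBP3 ranked 21st to IGF1, and IGF1 ranked 44th to IGFBP3. The added 1 shrinks differences between groups at low CPM, which limits the matches of IGF1 and IGFBP6. IGF1 averaged 23.4, 1.55 and 0.0642 CPM with AA147, with RP22 and at day 1. IGFBP3 averaged 2887, 446 and 224 CPM, so their fold changes differ more than this measure shows. These measures share the libraries and their scaling and are a description.

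Other genes of the pathway were read from lists, with counts for AA147 against RP22. Over all 14293 tested genes, 29.8% were called higher and 32.2% lower there. Of the insulin family, 2 of 7 genes were tested and both were called lower, INSR and RLN2, a relaxin gene with 17 reads in AA147 libraries and 50 in RP22 libraries. INSR averaged 40.7 CPM with AA147 and 45.2 CPM with RP22 (log2 -0.23 ± 0.08, edgeR adjusted p = 0.032), and both calls were lost when any 1 of the 6 libraries was left out. Of proteases, most of them known to cleave binding proteins, and their inhibitors, 5 of 10 were called higher and 3 lower, with a median log2 fold change of 0.27. Those higher were PAPPA, STC2, HTRA3, PRSS23 and ADAM9, and those lower were PAPPA2, HTRA1 and ADAM28, the last of which lost its call without AA147 replicate 3 or RP22 replicate 2 or 3. With library totals alone 5 were called in each direction, beside 1897 higher and 8527 lower of all 14293 tested genes. The lower count was 5 without AA147 replicate 1, and 2 when AA147 replicate 3 or RP22 replicate 2 or 3 was left out. STC1, like STC2 an inhibitor of PAPP-A, had -0.75 and was not called (edgeR adjusted p = 0.070), but was called at -1.15 without AA147 replicate 1 and at -1.19 with library totals alone. PAPPA, which cleaves IGFBP4, averaged 473 CPM with AA147 and 134 CPM with RP22 (log2 1.75 ± 0.44, edgeR adjusted p = 0.019). This call was lost without AA147 replicate 1 or 3 or RP22 replicate 3, with an edgeR adjusted p of 0.0515 to 0.0568, and the value was 2.41 without RP22 replicate 1. Its relative PAPPA2, which cleaves IGFBP3 and IGFBP5, averaged 13.7 CPM with AA147 and 80.7 CPM with RP22 (log2 -2.63 ± 0.10, edgeR adjusted p = 2.1e-06), the opposite direction. STC2, an inhibitor of PAPP-A, was higher, at 101 CPM with AA147 and 40.3 CPM with RP22 (log2 1.24 ± 0.14, edgeR adjusted p = 0.00017). HTRA3, a secreted serine protease, averaged 181 CPM with AA147 and 22.1 CPM with RP22 (log2 2.96 ± 0.31, edgeR adjusted p = 0.00049), and PRSS23, another secreted serine protease, had 2386 CPM with AA147 and 229 CPM with RP22 (log2 3.30 ± 0.17, edgeR adjusted p = 7.3e-06).

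Among adaptors and signalling genes downstream of the receptors, 14 of 27 were called higher and 3 lower (IRS4, PIK3R1 and PIK3R3), with a median of 0.33. The PIK3R3 call was lost when replicate 2 or 3 of either compound was left out. The higher ones included PIK3CA and PDPK1, kinases of the PI3K arm, AKT1, and MAP2K1 of the MAP kinase arm, with log2 fold changes of 0.47 to 0.73, and of these 4 all but MAP2K1 lost their call with library totals alone. With library totals alone these counts turned to 5 higher and 12 lower, with a median of -0.12. Over all 14293 tested genes that scaling gave 1897 higher and 8527 lower, with a median of -0.49. IRS2, FOXO1 and IRS4 kept their direction under both scalings. IRS2, an adaptor of the insulin and IGF receptors, averaged 78.8 CPM with AA147 and 29.1 CPM with RP22 (log2 1.35 ± 0.11, edgeR adjusted p = 4.9e-05). FOXO1, a transcription factor held out of the nucleus by this signalling, averaged 85.3 CPM with AA147 and 30.6 CPM with RP22 (log2 1.396 ± 0.10, edgeR adjusted p = 2.4e-05). IRS4, another adaptor, went the other way, with 0.620 CPM with AA147 and 74.0 CPM with RP22 (log2 -6.97 ± 0.86, edgeR adjusted p = 0.0013). IRS1, the adaptor most studied with IGF1R, had a log2 fold change of 0.21 ± 0.10 (edgeR adjusted p = 0.087), and -0.24 with library totals alone.

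All 7 tested genes that regulate IGF2 or bind its mRNA were called lower with AA147 than with RP22, beside 32.2% of all tested genes. Their median was -0.24, and the count was 3 or 4 without any 1 of AA147 replicates 1 to 3 or RP22 replicates 2 and 3. LIN28B, an RNA-binding protein, averaged 61.4 CPM with AA147 and 127 CPM with RP22 (log2 -1.13 ± 0.09, edgeR adjusted p = 3.1e-05), and PLAG1, a transcription factor of the IGF2 promoter, 30.9 CPM with AA147 and 44.6 CPM with RP22 (log2 -0.61 ± 0.09, edgeR adjusted p = 0.00079). Of the mRNA-binding proteins, IGF2BP2 had a log2 fold change of -0.42 ± 0.08 (edgeR adjusted p = 0.0028). IGF2BP1 had -0.23 ± 0.07 (edgeR adjusted p = 0.024) and IGF2BP3 -0.22 ± 0.07 (edgeR adjusted p = 0.031), and both calls were lost in several fits with 1 library left out. The chromatin factors CTCF and HMGA2 had -0.23 and -0.24, and both calls were lost in such fits as well. H19, the imprinted RNA next to IGF2, was listed at 0 in all 9 libraries. This gives no level for it, since 96.5% of 1194 long non-coding symbols were at 0 throughout, MALAT1 and NEAT1 among them, against 7.14% of 18227 protein-coding symbols.

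Of other imprinted genes of growth, 1 of 9 tested was called higher (GNAS, log2 0.53, or 0.07 with library totals alone) and 4 lower, with a median of -2.06. With library totals alone none was called higher and 5 lower, beside 1897 higher and 8527 lower of all 14293 tested genes. Without RP22 replicate 1, 2 were higher, with MEST at 0.59 as the added one, and 3 lower. Without AA147 replicate 3, 2 were likewise higher and 3 lower. DLK1, an imprinted Notch ligand relative, had -2.43 and was not called, but had -7.32 and was called without AA147 replicate 1. CDKN1C, an inhibitor of the cell cycle that lies in the same imprinted region as IGF2, averaged 13.4 CPM with AA147 and 105 CPM with RP22 (log2 -3.04 ± 0.50, edgeR adjusted p = 0.0039). PLAGL1, a zinc finger protein, averaged 17.1 CPM with AA147 and 80.02 CPM with RP22 (log2 -2.30 ± 0.31, edgeR adjusted p = 0.0012), and PEG3 99.5 CPM with AA147 and 478 CPM with RP22 (log2 -2.34 ± 0.23, edgeR adjusted p = 0.00024). CDKN1C stood at -3.70 without AA147 replicate 1. PEG10 was called too (log2 -2.06 ± 0.54, edgeR adjusted p = 0.023), and its call was lost without AA147 replicate 2 or 3 or RP22 replicate 1.

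Of the genes that tag and carry lysosomal enzymes along with IGF2R, 4 of 7 were called higher and 1 lower (GGA2, log2 -0.43), with a median of 0.55. With library totals alone 2 were higher and 3 lower, beside 1897 higher and 8527 lower of all 14293 tested genes. GNPTAB, which encodes the enzyme that starts the mannose 6-phosphate tag, averaged 202 CPM with AA147 and 85.3 CPM with RP22 (log2 1.17 ± 0.09, edgeR adjusted p = 3.2e-05), and GNPTG, its further subunit, 45.8 CPM with AA147 and 24.4 CPM with RP22 (log2 0.83 ± 0.08, edgeR adjusted p = 8.1e-05). M6PR, the smaller mannose 6-phosphate receptor, had a log2 fold change of 0.55 ± 0.07 (edgeR adjusted p = 0.00024), which was 0.10 and not called with library totals alone. NAGPA, which uncovers the tag, had 0.57 ± 0.21 (edgeR adjusted p = 0.043), and was likewise not called with library totals alone, at 0.12. Its call was also lost in 5 of 6 fits with 1 library left out, all but the one without AA147 replicate 2. Of the other IGF carriers, 1 of 3 tested was called higher (KAZALD1, log2 0.85) and 1 lower. Leaving out RP22 replicate 2 or 3, or scaling by library totals, ended the KAZALD1 call. ESM1, a proteoglycan of endothelium with an IGFBP-like domain, averaged 0.219 CPM with AA147 and 8.39 CPM with RP22 (log2 -5.24 ± 1.17, edgeR adjusted p = 0.0087), with all 5 AA147 reads in replicate 1 and values from -9.38 to -4.19 when 1 library was left out. The 8 endothelial markers summed to 7.17 to 24.3 CPM with AA147 and 92.1 to 189 CPM with RP22, and the part of these cells in the ESM1 result was not tested.

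**Figure D4:**
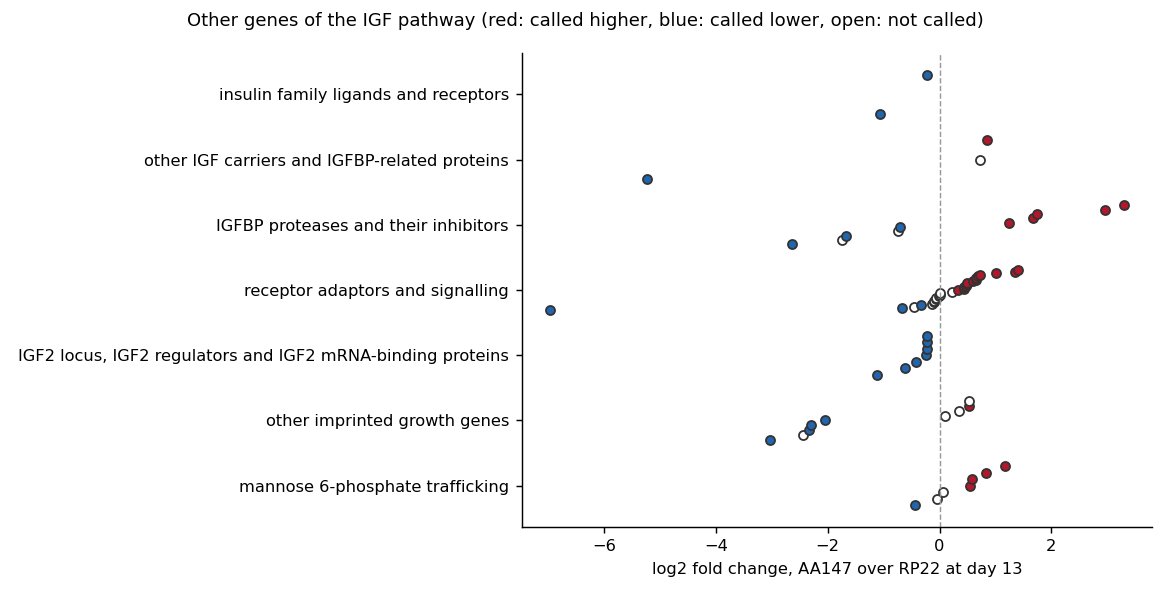
Log2 fold changes of AA147 over RP22 at day 13 (x axis) for the tested genes of each pathway list (rows), with red points called higher, blue lower and open points not called. All 7 genes of the IGF2 regulator list lie left of 0, in a comparison where 32.2% of all tested genes were called lower. Of the 27 signalling genes, 14 were called higher. With library totals alone that count was 5, and the count over all 14293 tested genes was 1897, against 4264 with TMM.

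The same lists were read against day 1, where 38.7% of all tested genes were called higher and 40.4% lower with AA147, and 36.6% higher and 35.2% lower with RP22. The signalling list had 15 of 27 higher and 7 lower with AA147, which turned to 9 higher and 11 lower with library totals alone. With RP22 it had 10 higher and 10 lower, and 12 higher and 8 lower with library totals alone. Over all genes, library totals alone gave 3866 higher and 7416 lower of 13761 with AA147. With RP22 that scaling gave 5820 higher and 4568 lower of 14559. Of the genes around IGF2R, 2 of 7 were higher and 2 lower with AA147, and 1 higher and 4 lower with library totals alone. With RP22, 1 of them was higher and 5 were lower, and none was higher without day 1 replicate 3.

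PAPPA was higher with either compound than at day 1, by 7.36 ± 0.29 with AA147 (edgeR adjusted p = 3.2e-07) and by 5.54 ± 0.67 with RP22 (edgeR adjusted p = 0.00058) on the log2 scale. Without day 1 replicate 1 these values were 8.05 and 6.22, and without RP22 replicate 1 the RP22 value was 4.89, all of them called. STC2, in contrast, had a log2 fold change of 0.14 ± 0.19 with AA147 over day 1 (edgeR adjusted p = 0.53), or -0.30 with library totals alone, and fell by 1.19 ± 0.21 with RP22 (edgeR adjusted p = 0.0019). IRS2 and FOXO1 fell with RP22 against day 1, by 1.12 ± 0.11 (edgeR adjusted p = 3.6e-05) and 2.24 ± 0.10 (edgeR adjusted p = 1.1e-06). With AA147 over day 1, FOXO1 fell by 0.77 ± 0.07 (edgeR adjusted p = 8.6e-06). IRS2 had 0.31 ± 0.11 with AA147 over day 1 (edgeR adjusted p = 0.028), but -0.13 and no call with library totals alone, and the call was also lost without AA147 replicate 2 or 3 or day 1 replicate 2 or 3.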

How the data were processed

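RNA of 9 HUES9 libraries was read from 2 tables. The authors deposited expected counts per gene, not scaled to depth, and RPKM values, scaled by them to gene length and library size. The submitters' processing notes name GRCh37.p13 as the genome, while the aligner and counter were not given in the sources used here. A floor of 0.05 in the counts and 0.002 in the RPKM was read as 0, 0.914% of count cells were fractions and were rounded, and 42 symbols on 2 rows were summed. Counts were tested in R 4.3.3 with edgeR 4.0.16 (filterByExpr, TMM, robust quasi-likelihood F test, Benjamini-Hochberg over all tested genes, threshold 0.05), on the 6 libraries of each comparison with no block. Counting intervals cover counting error only. SDs are over 3 libraries and SEs come from the F statistic. Alternatives were library totals, DESeq2 1.42.0, limma 3.58.1 on log2 RPKM with pseudocounts of 1 and 0.1, no filter, all 9 libraries in 1 fit, a replicate block and each library left out. The fit was tested on simulated data with known changes in a small share of genes. This did not test the scaling under changes as wide as those seen here. The members and lists were chosen with earlier results of these data known. The rule for named genes took all 10 members, up to 4 called genes per pathway list with the largest changes and at least 5 CPM, INSR, IRS1, IRS2, STC2, PAPPA, H19 and IGF2BP1 to IGF2BP3 throughout, and the 3 most similar profiles per member. A few genes that the rule would name are left unreported. Other pathway, marker and non-coding genes were named after their values were seen. Coordinates are those of the RefSeq promoters only, since the build of the counts differs.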

Additional observations from a re-analysis of the deposited data

How the results depend on the processing

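The 25 called values of the IGF genes kept their direction and call under all 15 alternatives each, 375 of 375 values. The counts over all genes and the uncalled values moved more. For AA147 against RP22, library totals alone gave 1897 genes higher and 8527 lower, limma on log2(RPKM + 1) 1898 and 8500, and limma on log2(RPKM + 0.1) 1898 and 8505, against 4264 and 4600 with TMM. The first of these alternatives differs from TMM by its scaling only. IGF2 turned to -0.42 with library totals, -0.34 with either RPKM fit, -0.02 without AA147 replicate 1, -0.15 without RP22 replicate 2 and -0.12 without RP22 replicate 3, never called. IGFBP4 turned to -0.23 with library totals and to -0.24 with both RPKM fits, not called. With 1 library left out, 3754 to 4616 genes were higher and 3769 to 4831 lower, and 6 to 8 IGF genes were higher and 1 lower. Without RP22 replicate 1, IGF2 was called at 0.44 with TMM. IGFBP5 was called higher with DESeq2 (0.55), all 9 libraries in 1 fit (0.63), and, chosen after seeing the data, without replicate 1 of both groups (0.85), where IGF2 was called as well (0.39). IGF2R of RP22 against day 1 was called with library totals (0.25), both RPKM fits (0.24 and 0.25), without day 1 replicate 1 (0.22) and without replicate 1 of both groups (0.20); the cause was not tested. In fits on log2(RPKM + 1), the changes of IGF1 are understated, at 1.76 for AA147 against RP22. Same-numbered AA147 and RP22 libraries had correlations of 0.23, 0.18 and 0.09 in their deviations, and differently numbered ones -0.25 to 0.16. Replicate 1 was the highest with both compounds for DLK1 (103, 1.24 and 1.13 CPM with AA147, 351, 95.1 and 98.9 CPM with RP22). For LUM it was the lowest with AA147 and the highest with RP22. Same-numbered libraries had -0.05 to 0.07 with day 1. The labels do not say that a number marks a shared batch, so the main fit took no pairing. Whether same-numbered AA147 and RP22 libraries share an effect was not tested. A replicate block gave 4207 genes higher and 4694 lower for AA147 against RP22. It gave 5427 and 5587 for AA147 against day 1 and 5300 and 5039 for RP22 against day 1. For AA147 against RP22 the block called IGFBP5 higher (0.62). Among pathway genes it added calls for ADAM12, FOXO4, IGFBPL1, MEST and STC1. The calls of HMGA2, IGF2BP3, INSR, NAGPA, PIK3R3 and RLN2 were lost with it. IGF1 and IGFBP7 at day 1 and IGFBP6 with AA147 rest on few reads, which limits their fold changes.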
